A study of Mus musculus with 6 samples.

Results

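The RNA levels of 10 genes that make or use serine, glycine, threonine, proline and asparagine were followed in mouse embryonic stem (ES) cells: Phgdh, Psat1, Psph, Shmt1, Shmt2, Mthfd2, Tdh, Gldc, Aldh18a1 and Asns. Every probe set with one of these names as its single gene symbol was taken, which gave 25 of the 45037 probe sets tested and 9 of 18193 genes. In the annotation used, Tdh had 0 such probe sets, so it was not analysed here. Phgdh, Shmt1 and Shmt2 had 4 probe sets each, Aldh18a1 had 5, Psat1, Mthfd2 and Asns had 2 each, and Psph and Gldc had 1 each. Probe sets of a gene share their target, and 12 of the 25 carry the suffix _x_at and 2 the suffix _s_at, which mark probes that may also match other sequences. The mean over the arrays was at least 6 on the log2 scale for 24 of the 25.

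The series holds 6 Affymetrix mouse genome arrays from the ES cell clones A1, B3 and C6, which descend from the EB3 line and carry the human GTF2I coding sequence with a FLAG tag at Rosa26, driven by a promoter that tetracycline silences. GTF2I encodes TFII-I, a transcription factor of the Williams-Beuren syndrome region. Each clone was measured once with tetracycline in the medium (uninduced, 0 h) and once after 24 h without it (induced), so that there were 3 arrays per group, all from undifferentiated cells that carry the transgene. The transgene and the removal of tetracycline cannot be told apart, each clone gave 1 array per state, and the transgene itself was not measured here. GTF2I is the transgene in the sample titles, which were followed, although a genotype field has GTF2IRD2.

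The values are log2 probe-set summaries made by robust multiarray averaging (RMA), and array medians lay between 5.06 and 5.11. The 12 ES cell markers, Pou5f1 and Nanog among them, lay between 9.88 and 14.3 in all arrays, whereas the 6 primitive endoderm markers lay between 3.92 and 5.13 and the 6 fibroblast markers between 2.42 and 7.40. Trophectoderm markers lay between 3.66 and 7.85, mesoderm markers between 4.41 and 6.38 and neural ectoderm markers between 2.69 and 7.57. By its labels, clone A1 ran opposite to the others across the array: over all probe sets the correlation of its induced minus uninduced differences was r = -0.388 with B3 and r = -0.477 with C6, whereas B3 with C6 gave r = 0.456. These correlations are across genes, which are not independent replicates. Every A1 difference below takes its sign from the induction labels of its 2 arrays, which no value here checks. Were they exchanged, each A1 difference would turn its sign. The study also followed the transgene by RT-PCR in each clone, which was not analysed here. Values are therefore given for each clone.

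Serine is built from a glycolytic intermediate in 3 steps, by Phgdh, Psat1 and Psph. The serine hydroxymethyltransferases Shmt1, of the cytosol, and Shmt2, of the mitochondria, turn serine into glycine and pass a carbon to folate, Mthfd2 oxidizes the folate-bound carbon in mitochondria, and Gldc is the decarboxylase of the glycine cleavage system. Mouse ES cells are known for their dependence on threonine, which threonine dehydrogenase (Tdh) feeds into glycine. Aldh18a1 encodes the enzyme that starts proline synthesis from glutamate, and Asns makes asparagine. Several of these genes are known targets of ATF4, the transcription factor of the amino acid response.

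The promoters of 3 of these genes are printed because Aldh18a1 held the probe set with the widest contrast between clone A1 and the others, every Shmt2 probe set shared its sign in that contrast, and Asns is the textbook gene of the amino acid response. Each is the 250 bases before the annotated start in RefSeq (GRCm38.p6), read 5′ to 3′ on the minus strand on which all 3 genes lie, at chr19:40588464-40588713 for Aldh18a1, chr10:127522445-127522694 for Shmt2 and chr6:7693210-7693459 for Asns. Capitals mark matches to 3 motifs searched on both strands.
Aldh18a1: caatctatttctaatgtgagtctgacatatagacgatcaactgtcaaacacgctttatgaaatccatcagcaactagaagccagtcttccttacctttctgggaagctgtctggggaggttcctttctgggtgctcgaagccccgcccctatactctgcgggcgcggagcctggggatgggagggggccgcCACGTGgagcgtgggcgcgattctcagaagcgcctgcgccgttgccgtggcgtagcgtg
Shmt2: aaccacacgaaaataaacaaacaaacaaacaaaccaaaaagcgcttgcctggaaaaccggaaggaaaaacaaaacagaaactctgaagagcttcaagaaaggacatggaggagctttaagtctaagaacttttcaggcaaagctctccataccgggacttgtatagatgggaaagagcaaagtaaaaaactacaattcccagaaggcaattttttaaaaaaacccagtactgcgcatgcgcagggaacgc
Asns: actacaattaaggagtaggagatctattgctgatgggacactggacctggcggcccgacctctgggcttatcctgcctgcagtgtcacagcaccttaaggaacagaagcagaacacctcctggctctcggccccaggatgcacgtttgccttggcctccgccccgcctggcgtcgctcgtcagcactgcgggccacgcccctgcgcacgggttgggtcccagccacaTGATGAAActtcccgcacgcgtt
The motifs were TGATGNAA, the core of the C/EBP-ATF response element, TGACGTCA, the cyclic AMP response element, and CACGTG, an E-box. Aldh18a1 held an E-box 59 to 54 bases before the start. Asns held TGATGAAA 23 to 16 bases before the start, and Shmt2 held none of the 3. Windows were found for 9 of the 10 genes, and only these 2 of them had a match. Of 32851 windows of the same length, 3.45% held the C/EBP-ATF core, 1.55% the cyclic AMP response element and 6.02% the E-box. A match is a description of letters and not a binding site.

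Over the 3 clones, none of the 25 probe sets passed the test between induced and uninduced arrays. In limma, 0 of 25 passed an adjusted p of 0.05, adjusted by Benjamini-Hochberg over all 45037 probe sets, and 0 had an unadjusted p under 0.05, where over the whole array 0% were called and 436 had an unadjusted p under 0.05. The methods' t-test likewise gave 0 after adjustment. The log2 differences ran from -0.28 to 0.08 with a median of -0.07, and 22 of 25 lay below 0. On the brightest probe set of each gene, 8 of 9 did. Over all probe sets the median was 0.00, with 22401 of 45037 below 0. The signs depended on single arrays: 17 of 25 lay below 0 without the uninduced array of A1, and 14 of 25 without clone C6. The smallest unadjusted p was 0.138. The plot of the brightest probe sets shows that the clones often moved apart.

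**Figure D1:**
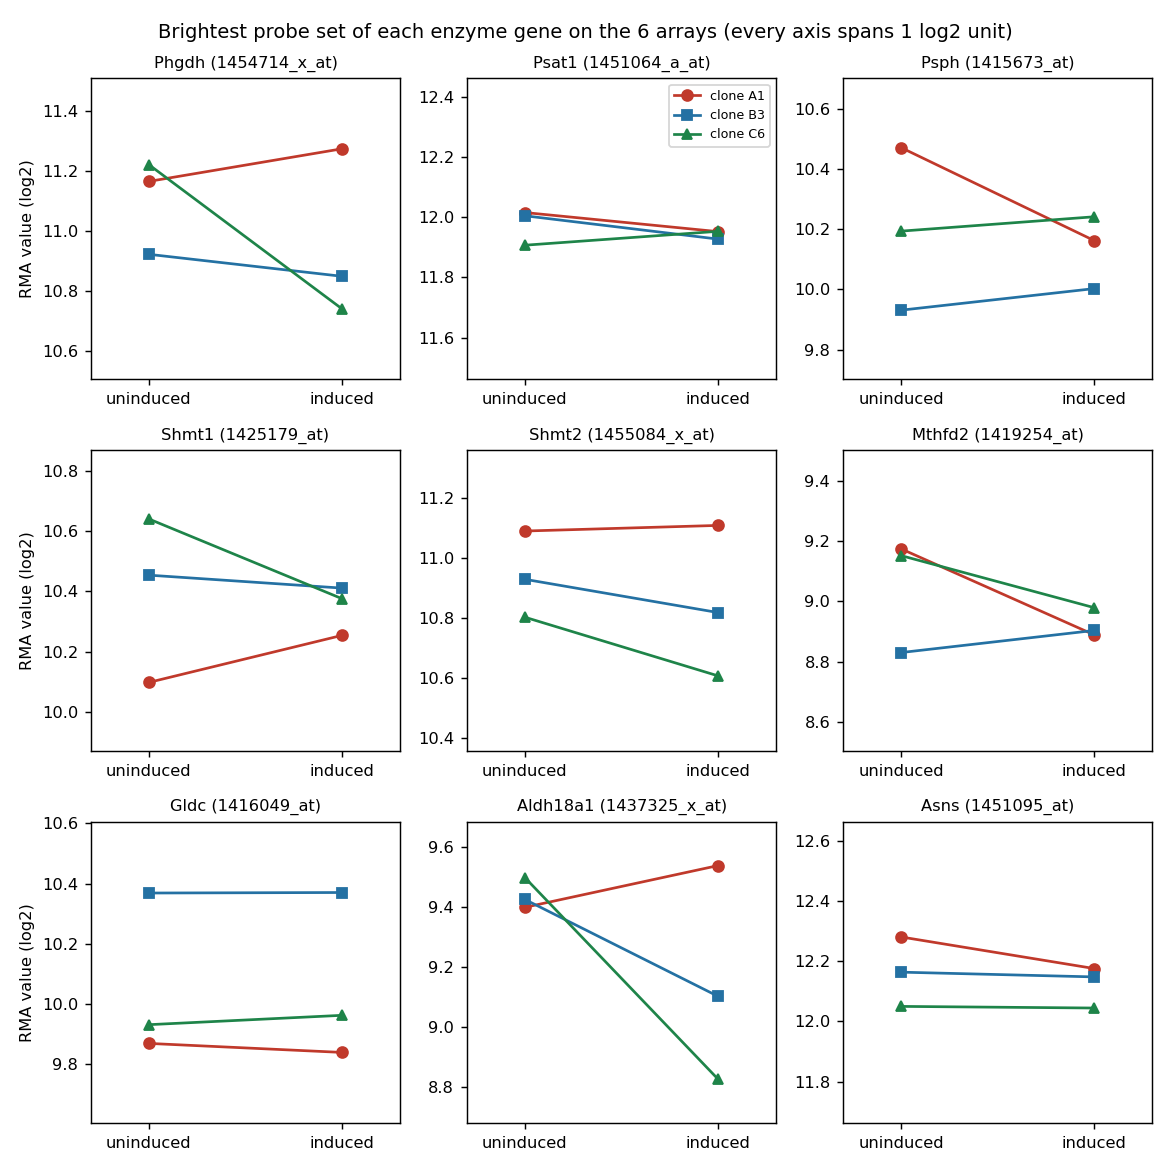
RMA value (log2) of the brightest probe set of each of the 9 genes measured, drawn as 1 point per array, with the states of a clone connected, for clones A1 (red circles), B3 (blue squares) and C6 (green triangles). Aldh18a1 went from 9.40 to 9.54 in A1 and from 9.50 to 8.83 in C6, while Gldc differed by -0.03, 0.00 and 0.03 in A1, B3 and C6.

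The clones parted most at Aldh18a1, the gene of the first steps of proline synthesis. Its probe set 1415836_at stood at 8.12, 8.48 and 8.70 in A1, B3 and C6 uninduced, and at 8.69, 8.07 and 7.70 in A1, B3 and C6 induced. The induced array of A1 and the uninduced array of C6 were the highest and the induced array of C6 the lowest, so the groups overlapped. The induced level was 1.48-fold the uninduced one in A1, 0.751-fold in B3 and 0.50-fold in C6. The difference of A1 exceeded the mean of the other clones by 1.27 ± 0.25 (SE) on the log2 scale (limma, adjusted p = 0.0336). Both this contrast and the fit of B3 and C6 alone were chosen after A1 was seen to run opposite. Their adjusted p values do not account for that choice. Within B3 and C6, with the clone as a block, the probe set fell by 0.71 on the log2 scale (95% interval -1.03 to -0.38, limma, adjusted p = 0.0432), but without the block it did not pass (adjusted p = 0.403). Over all 3 clones it averaged 8.43 ± 0.29 (SD, n = 3) uninduced and 8.15 ± 0.50 induced, which left a difference of -0.28 between the states (95% interval -0.87 to 0.31).

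Aldh18a1 had 4 further probe sets, all with an A1 difference above those of B3 and C6, and none of them passed either test. The brightest, 1437325_x_at, differed by 0.14, -0.32 and -0.67 in A1, B3 and C6. The A1 difference stood 0.64 above the others (95% interval 0.17 to 1.10, limma, adjusted p = 0.154), and B3 and C6 gave -0.50 (adjusted p = 0.0722). Probe set 1437333_x_at differed by 0.33, -0.23 and -0.71 in A1, B3 and C6. Probe set 1435855_x_at differed by 0.24, -0.13 and -0.58, in the same order of clones. The dimmest, 1437620_x_at, whose mean was 4.81, differed by -0.02, -0.11 and -0.44. The mean of the 12 ES cell markers moved in the same directions as Aldh18a1, by 0.12, -0.09 and -0.15 in A1, B3 and C6. The markers split, with 6 of the 12 above 0 and 6 below in the A1 contrast. Of the 12, 1 passed, the nuclear receptor gene Esrrb, named after its values were seen. Esrrb differed by 0.51, -0.36 and -0.65 in A1, B3 and C6, an A1 contrast of 1.02 (limma, adjusted p = 0.0347). The part of these markers in the values of Aldh18a1 was not tested. In such bulk samples, fewer cells of a type and less RNA per cell cannot be told apart.

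**Figure D2:**
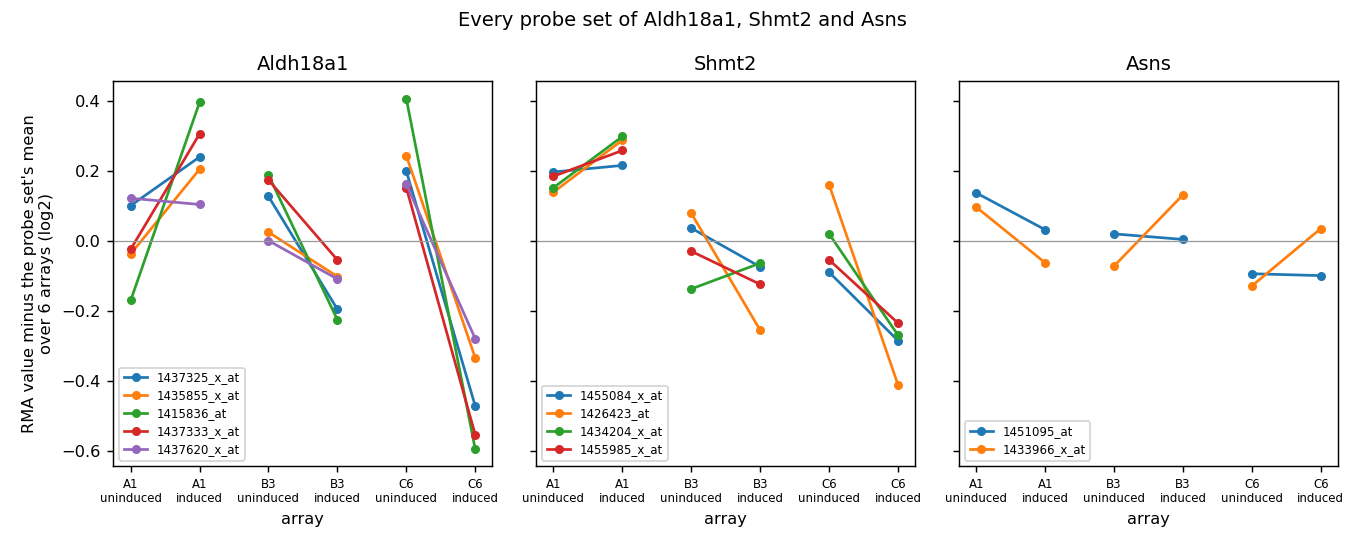
RMA value of each probe set minus its mean over the 6 arrays (log2) for Aldh18a1, Shmt2 and Asns, with the states of each clone connected. The induced C6 array lies below the uninduced one for all 5 Aldh18a1 and all 4 Shmt2 probe sets, and the induced A1 array lies above for 4 of the 5 and all 4, while the 2 Asns probe sets stay within 0.14 of their means.

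Counted over all members, 1 of the 25 probe sets, the one of Aldh18a1, passed the test of A1 against B3 and C6, and 9 had an unadjusted p under 0.05. Over the whole array 2.71% were called and 7682 of 45037 had an unadjusted p under 0.05, so the call alone does not set the enzymes apart. Among the 17168 probe sets averaging 6 or more, as 24 of the 25 did, the shares were 5.47% called and 27.9% with an unadjusted p under 0.05. The median of this contrast was 0.21, with 14 above and 11 below 0, beside -0.01 over all probe sets. On the brightest probe set of each gene the median was -0.05, with 4 above and 5 below 0. Within B3 and C6, 1 of 25 passed, lower, and 8 had an unadjusted p under 0.05. Of the whole array, 2.18% was called and 16.1% had such a p, against 4.19% and 26.2% of probe sets with a mean of 6 or more. The median of the members within B3 and C6 was -0.11, with 20 of 25 below 0. Over all probe sets it was 0.00, with 21997 of 45037 below 0. On the brightest probe set of each member gene it was -0.05, with 7 of 9 below 0. The 2 tests share the arrays of B3 and C6. The spread in both came from the gap between B3 and C6 and from pooling across probe sets, and the lone A1 difference was assumed to vary like theirs. The sign in A1 was opposite to that of both other clones for 17 of the 25 (68.0%) and shared by all clones for 3 (12.0%), beside 60.3% and 11.9% among the 17168 probe sets averaging at least 6.

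**Figure D3:**
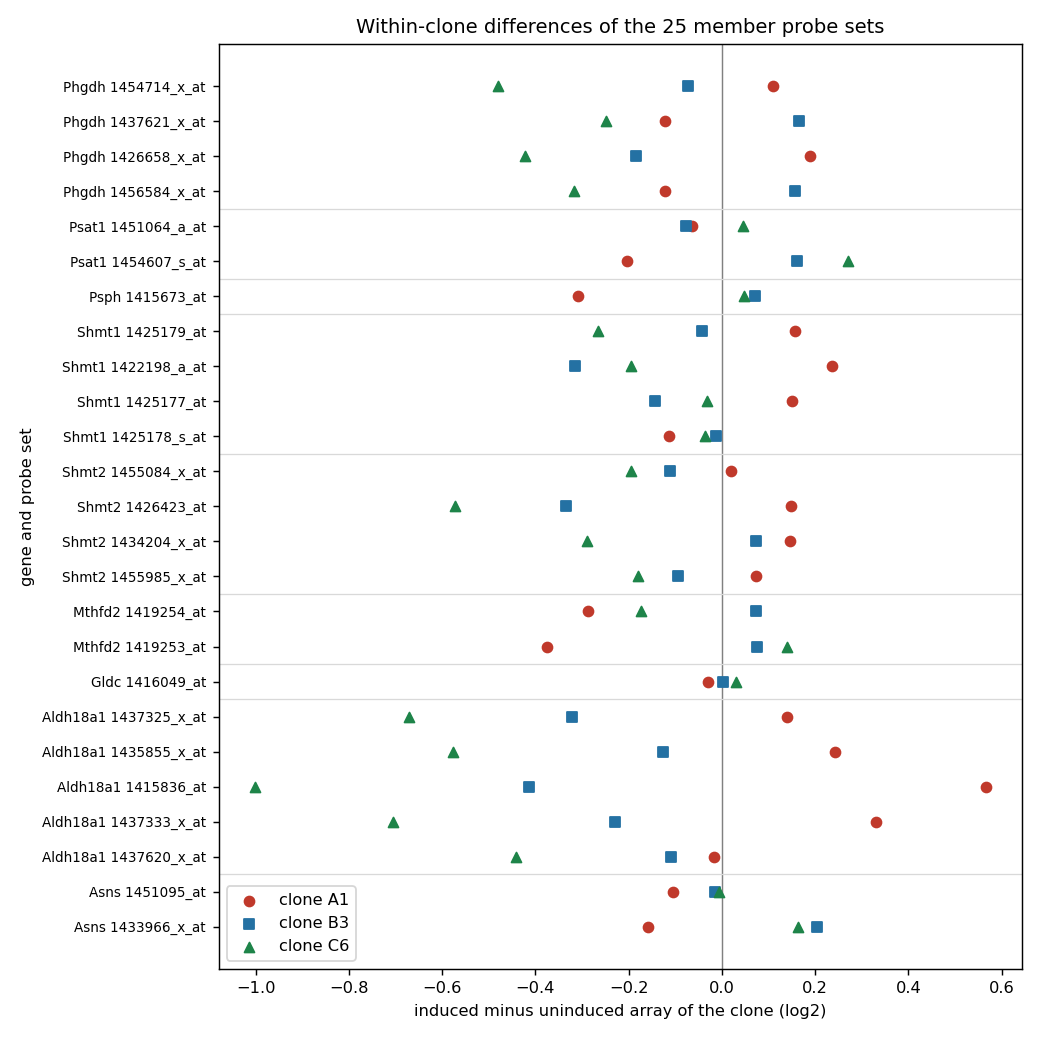
Induced minus uninduced log2 difference of the 25 probe sets, with 1 point per clone (A1 red circles, B3 blue squares, C6 green triangles). The A1 points lie right of 0 and the C6 points left of it for most probe sets of Shmt1, Shmt2 and Aldh18a1, and the widest gap, from -1.0 in C6 to 0.57 in A1, is at Aldh18a1 1415836_at.

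Of the 7 probe sets for serine synthesis, 6 lay below 0 over the 3 clones (-0.15 to 0.08), 5 in the A1 contrast and 5 within B3 and C6, and 0 passed a test. Phgdh, the entry enzyme, stood on its brightest probe set, 1454714_x_at, at 11.17, 10.92 and 11.22 in A1, B3 and C6 uninduced and at 11.27, 10.85 and 10.74 induced. C6 was the highest clone uninduced and the lowest induced, and the groups overlapped. All 4 Phgdh probe sets were lower in the induced array of C6, by -0.25 to -0.48, but they split in the other clones: 1454714_x_at and 1426658_x_at were higher in A1 and lower in B3, while 1437621_x_at and 1456584_x_at were the reverse. None passed a test, and the A1 contrast of 1426658_x_at was 0.49 (95% interval 0.05 to 0.93, limma, adjusted p = 0.236), with -0.30 within B3 and C6 (adjusted p = 0.217).

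Psat1, the aminotransferase of the pathway, varied little. Its brightest probe set, 1451064_a_at, stood at 12.02, 12.00 and 11.91 in A1, B3 and C6 uninduced and at 11.95, 11.93 and 11.95 induced, a range of 0.11 over the 6 arrays. The induced minus uninduced difference was -0.03 (95% interval -0.24 to 0.17). Its other probe set, 1454607_s_at, differed by -0.20, 0.16 and 0.27 in A1, B3 and C6. Psph, the phosphatase that releases serine, stood at 10.47, 9.93 and 10.19 in A1, B3 and C6 uninduced and at 10.16, 10.002 and 10.24 induced. The A1 difference of Psph was -0.31 against 0.07 in B3 and 0.05 in C6, a contrast of -0.37 (95% interval -0.78 to 0.04, limma, adjusted p = 0.352).

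Of the enzymes that move carbon from serine to folate, the A1 contrast of Shmt2 had the sign of that of Aldh18a1 and the contrast of Mthfd2 the opposite sign, but neither gene passed a test. The mitochondrial Shmt2 stood on probe set 1426423_at at 10.55, 10.49 and 10.57 in A1, B3 and C6 uninduced and at 10.70, 10.15 and 9.996 induced. The 3 uninduced arrays lay close to each other, and the induced arrays spread around them. The A1 contrast was 0.60 (95% interval 0.16 to 1.04, limma, adjusted p = 0.150) and the difference within B3 and C6 was -0.45 (95% interval -0.71 to -0.20, adjusted p = 0.0786). The brightest Shmt2 probe set, 1455084_x_at, differed by 0.02, -0.11 and -0.20 in A1, B3 and C6, with an A1 contrast of 0.17 (95% interval -0.24 to 0.59). Probe set 1434204_x_at differed by 0.15, 0.07 and -0.29 in A1, B3 and C6, so there B3 rose with A1. Its A1 contrast was 0.25. The dimmest, 1455985_x_at, differed by 0.07, -0.09 and -0.18, a contrast of 0.21.

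The cytosolic Shmt1 stood on probe set 1425179_at at 10.10, 10.45 and 10.64 in A1, B3 and C6 uninduced and at 10.25, 10.41 and 10.38 induced. A1 was the lowest clone in both states. Its probe set 1422198_a_at differed by 0.24, -0.31 and -0.20 in A1, B3 and C6, an A1 contrast of 0.49 (95% interval 0.07 to 0.91, limma, adjusted p = 0.215). The contrasts of 1425177_at and 1425178_s_at were 0.24 and -0.09. Mthfd2 stood on probe set 1419254_at at 9.17, 8.83 and 9.15 in A1, B3 and C6 uninduced and at 8.89, 8.90 and 8.98 induced. The induced arrays of Mthfd2 lay within the span of the uninduced ones. Its other probe set, 1419253_at, differed by -0.38, 0.08 and 0.14 in A1, B3 and C6, a contrast of -0.48 (95% interval -0.90 to -0.07, adjusted p = 0.217).

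**Figure D4:**
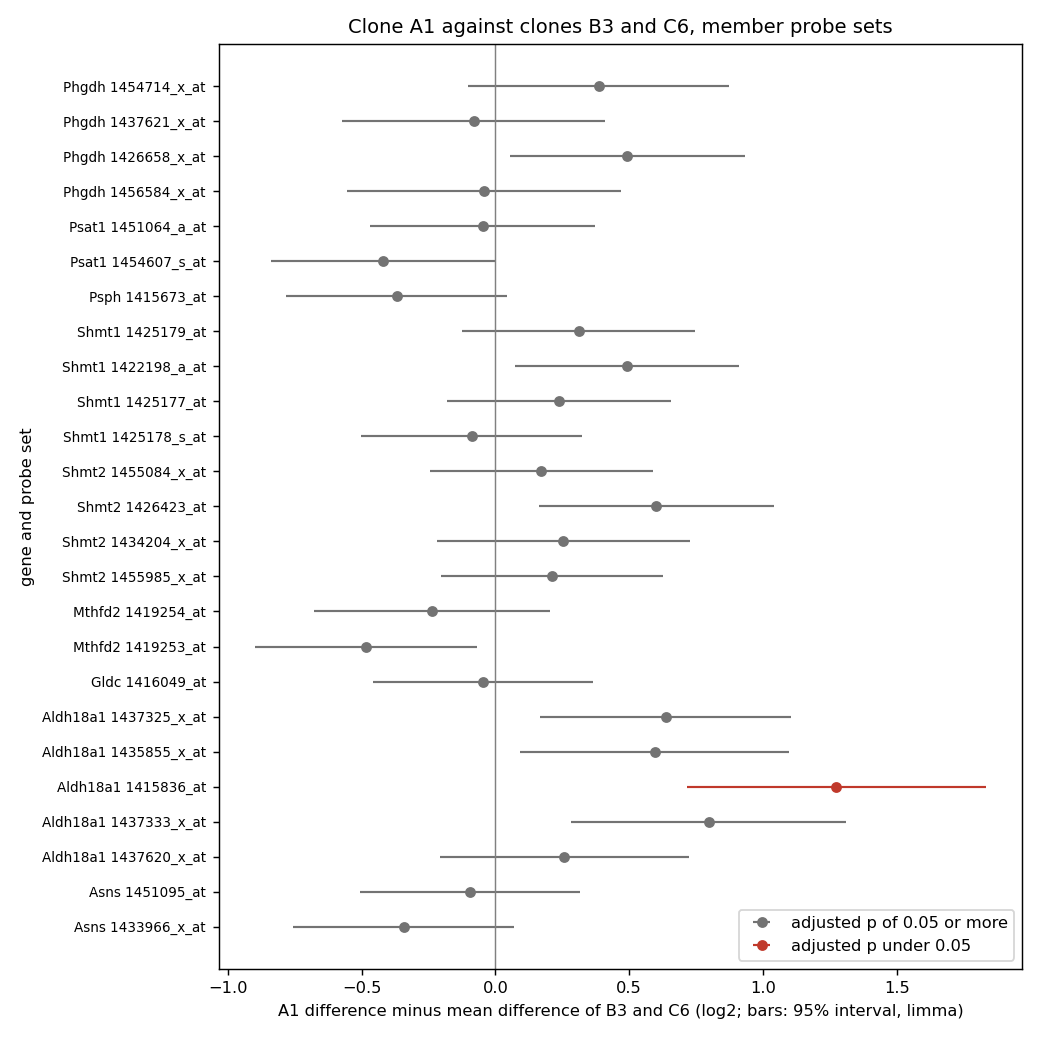
Induced minus uninduced difference of clone A1 minus the mean of those of B3 and C6 (log2) for the 25 probe sets, with 95% intervals from limma. The red point, Aldh18a1 1415836_at at 1.27, is the one past the threshold.

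Gldc varied more between clones than between states. It stood at 9.87, 10.37 and 9.93 in A1, B3 and C6 uninduced and at 9.84, 10.37 and 9.96 induced. Both arrays of B3 lay above all 4 arrays of the other clones, and the state made a difference of 0.00 (95% interval -0.42 to 0.42). The clone means were 9.85, 10.37 and 9.95, and the test between clones did not pass after adjustment (limma F test, adjusted p = 0.147, unadjusted p = 0.00578). Of the 25 probe sets, 0 passed this test and 3 had an unadjusted p under 0.05, where 1.13% of the array was called and 6192 probe sets had an unadjusted p under 0.05. The other 2 were Shmt2 1455084_x_at, with clone means of 11.10, 10.87 and 10.70 in A1, B3 and C6, and Shmt2 1455985_x_at. The mean of the 6 trophectoderm markers was also higher in A1, at 5.93 to 6.00, than in B3 and C6, at 5.46 to 5.62. The markers split: Krt8 had clone means of 7.85, 6.36 and 5.96 in A1, B3 and C6, and Krt18 of 7.29, 6.49 and 6.48. These 2 of the 6 passed the test between clones (limma F test, adjusted p = 0.00466 for Krt8 and 0.0445 for Krt18). Eomes was also highest in A1, but Cdx2 and Elf5 were lowest there and Hand1 lay between the others. The part of these markers in the clone differences was not tested.

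Asns, which makes asparagine, spanned 0.24 over the 6 arrays on its brightest probe set, 1451095_at. It stood at 12.28, 12.16 and 12.05 in A1, B3 and C6 uninduced and at 12.18, 12.15 and 12.04 induced. The order of the clones was the same in both states, and the groups overlapped. The induced minus uninduced difference was -0.04 (95% interval -0.28 to 0.19), and the A1 contrast was -0.09 (95% interval -0.51 to 0.32). Probe set 1433966_x_at differed by -0.16, 0.20 and 0.16 in A1, B3 and C6, a contrast of -0.34 (limma, adjusted p = 0.396).

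The neighbouring pathway genes were counted in 5 lists of 60 measured genes, each gene on its brightest probe set. Between induced and uninduced arrays over the 3 clones, 0 passed in limma and 0 had an unadjusted p under 0.05. In the contrast of A1 against B3 and C6, 2 passed above 0 and 0 below, among 2.71% called on the array. Of the proline, glutamate and aspartate genes, 10 of 13 lay above 0 in the A1 contrast (median 0.12) and 1 passed. This was Aldh4a1, the gene of the last step from proline to glutamate. It stood at 7.61, 7.90 and 8.05 in A1, B3 and C6 uninduced and at 8.09, 7.58 and 7.54 induced, a contrast of 0.90 ± 0.19 (SE, limma, adjusted p = 0.0438). Within B3 and C6 Aldh4a1 gave -0.42 and did not pass (adjusted p = 0.0905). Oat, an aminotransferase between ornithine and the proline precursor, gave -0.70 (adjusted p = 0.0872), and the glutamate enzymes Got2 and Glud1 gave 0.49 and 0.43.

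Of the 9 genes in the ATF4 branch list, 4 lay above 0 in the A1 contrast and 5 below (median -0.19), and 1 passed. Sesn2, an inhibitor of the growth kinase mTORC1, stood at 8.79, 9.46 and 9.44 in A1, B3 and C6 uninduced and at 9.38, 8.99 and 8.88 induced. The A1 contrast was 1.10 ± 0.18 (SE, limma, adjusted p = 0.0201), and within B3 and C6 Sesn2 fell by 0.52 on the log2 scale with the clone as a block (adjusted p = 0.045), where 0 probe sets of the array passed without the block. Atf4 itself differed by -0.14, -0.16 and -0.14 in A1, B3 and C6 and did not pass. Trib3 gave an A1 contrast of -0.61 (adjusted p = 0.131), Ppp1r15a 0.55 and Eif2ak4, the kinase that senses amino acid lack, -0.46.

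Among the other serine, glycine and threonine genes, 5 of 13 lay above 0 in the A1 contrast (median -0.09) and 0 passed, and 8 of the 13 had a mean of at least 6. Cbs, of the route from serine to cysteine, gave 0.55, Dld -0.35 and Pipox -0.28. Agxt2 had a mean of 3.55, under every array's lower quartile (3.66 to 3.73), and is given no contrast. Cth, the next enzyme of that route, differed between clones, with means of 12.19, 11.56 and 11.17 in A1, B3 and C6 (limma F test, adjusted p = 0.0319). Chac1, of the ATF4 branch list, which breaks down glutathione, did so as well, at 7.97, 7.34 and 8.52 (adjusted p = 0.0466). Of the 60 neighbouring genes these 2 passed the test between clones, beside 1.13% of the array and 2.04% of probe sets averaging at least 6. In the folate cycle, 6 of 14 lay above 0 (median -0.12) and 0 passed, with Aldh1l2 at -0.67 (adjusted p = 0.107), Fpgs at 0.48, Mthfd1 at -0.47 and Mthfd2l at -0.43. Of the genes that make purines and deoxynucleotides, 6 of 11 lay above 0 (median 0.04) and 0 passed. Atic stood at 0.60, Rrm2 at -0.41, Impdh1 at 0.33 and Gart at 0.25.

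**Figure D5:**
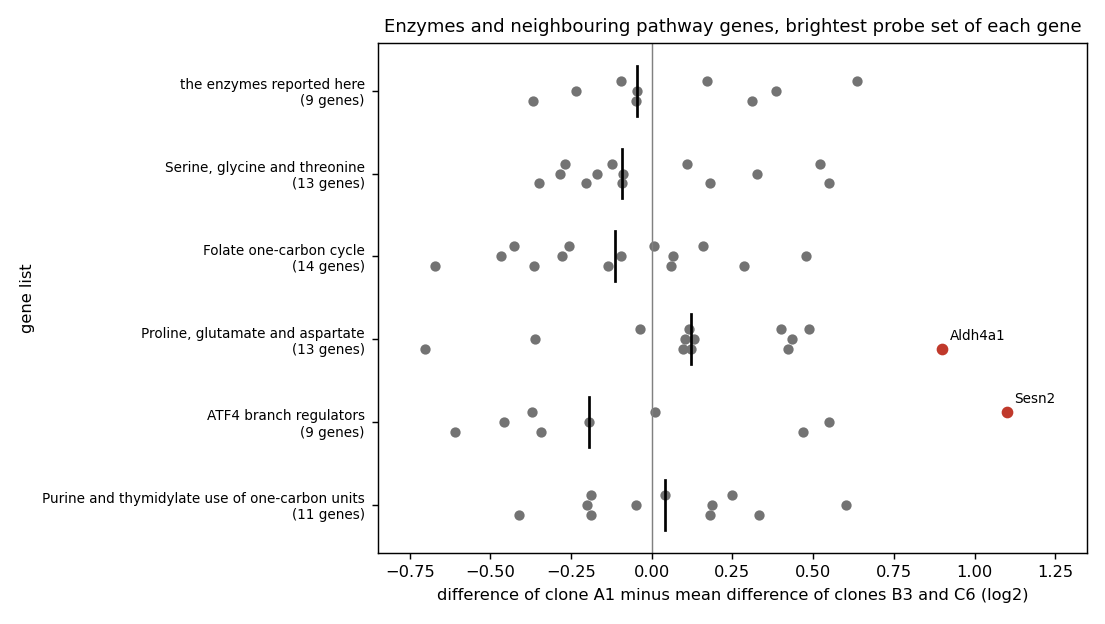
Difference of clone A1 minus the mean difference of B3 and C6 (log2), with 1 point per gene on its brightest probe set and a bar at the list median, for the enzymes and 5 lists of neighbouring genes. Aldh4a1 at 0.90 and Sesn2 at 1.10, in red, passed the limma test, and the medians lie between -0.19 and 0.12.

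The genes with the most similar pattern were found by Pearson's r over the 6 arrays among the 9552 genes averaging at least 6, for members whose brightest probe set spanned at least 0.5. The points share arrays and clones, so the values describe likeness only. For Aldh18a1 they were Abtb1 (r = 0.996), Zbtb12 (r = 0.995) and Ilk (r = 0.993). For Shmt2 they were A4galt, Asap2 and Sh3bp1 (r of 0.994 to 0.992), and for Phgdh Epb41l2, Haus5 and Pkn3 (r of 0.999 to 0.989). Psph was nearest to Trap1, Erp44 and Stag1 (r of 0.994 to 0.992) and Shmt1 to Mri1, Snx8 and Slc37a1 (r of 0.997 to 0.988). Gldc was nearest to Cldn4 (r = 0.9985), Acsl5 (r = 0.996) and Rpl39l (r = 0.993).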

How the data were processed

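The deposited values were log2 expression summaries that the authors made by RMA of Affymetrix scans, per the labels and the methods, and affy and RMA are named in the submitters' processing notes. No further normalization was applied. Of 45101 probe sets, 64 controls were left out. The platform annotation gave 34945 of the 45037 tested a single gene symbol, 932 several and 9160 none. Groups and clones came from the sample titles. Induced and uninduced arrays were compared by a two-sided moderated test in limma 3.58.1 under R 4.3.3 (Benjamini-Hochberg over all probe sets, threshold 0.05), in place of the methods' t-test because each group had 3 arrays. The within-clone differences of A1 were set against those of B3 and C6, B3 and C6 were fitted alone with the clone as a block, and clones were compared by a moderated F test. The scripts were tested on simulated data. Arrays of the same clone share a number, and their deviations from the group means correlated at 0.190, 0.532 and 0.312 in A1, B3 and C6. By the labels the arrays are biological replicates, and with 3 per group their number limits the precision. Array-wide correlations lay between 0.991 and 0.996. Every member probe set was named, by its gene alone where the gene had 1. So were up to 4 genes of each pathway list by the smallest p in the A1 contrast. The 3 nearest genes of each member were named too, and other list genes that were called or were the list's namesake. Alternatives covered the block, the test, quantile normalization, a minimum mean of 6, 1 probe set per gene, an intensity trend and left-out arrays. The members, lists and tests were chosen with earlier results of these data known. Probe sets that name Phgdh together with a predicted gene were left out.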

Additional observations from a re-analysis of the deposited data

Results flagged for a closer look

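The difference between induced and uninduced arrays was not the same in all clones for 4 of the genes described. By limma's test of the A1 difference against those of B3 and C6, Aldh18a1 probe set 1415836_at stood apart by 1.27 on the log2 scale, higher in A1 and lower in both other clones. Sesn2 stood apart by 1.10, the ES cell marker Esrrb by 1.02 and Aldh4a1 by 0.90, in the same direction. The test was chosen after clone A1 was seen to run opposite on the same arrays. Of the whole array 2.71% of probe sets passed this test, 769 above 0 and 450 below, and 5.47% of those averaging at least 6. The array-wide opposition of clone A1 moved with all 4, and its part in them was not tested. Groups of 3 arrays are too small for a test of single outlying arrays.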

How the results depend on the processing

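The comparison over 3 clones called 0 probe sets under every alternative, including the clone as a replicate block (0 called) and the methods' t-test (smallest adjusted p 0.739). Leaving out clone A1 without the block gave the smallest adjusted p, 0.0536. The A1 contrast called 1219 probe sets, and 2355 with a minimum mean of 6, 458 with 1 probe set per gene and 2985 with an intensity trend. Of the 25 members it called 1, and 0 with 1 probe set per gene, where a dimmer Aldh18a1 probe set is not kept, and 5 with the trend. Within B3 and C6, 981 became 1861, 207 and 2745 under the same settings, and 0 with no replicate block or with any single array left out without the block (0 to 0). The members called there went from 1 to 3, 0 and 5, and to 0 with no replicate block or an array left out. The 5 were Aldh18a1 1415836_at, 1437325_x_at and 1437333_x_at, Shmt2 1426423_at and Phgdh 1426658_x_at, in both contrasts. Between clones, 509 calls became 108 with a minimum mean of 6, and 0 members were called in any setting. The A1 contrast of Aldh18a1 1415836_at stayed between 1.25 and 1.27, with adjusted p from 0.00275 to 0.0336. No called member value changed sign, but over the 3 clones 18 of the 25 uncalled differences did so in at least 1 alternative, and 14 to 22 of the 25 lay below 0 where all were fitted. Leaving out an array from the A1 contrast or the blocked fit leaves no residual degrees of freedom, so the clones' own values stand in its place. With 3 arrays per group, the 95% intervals of the 25 member differences are the limit on what could be seen.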
